A study of Mus musculus with 4 samples.

Results

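Grainyhead-like factors (Grhl1, Grhl2, Grhl3), the OVO-like zinc finger repressors (Ovol1, Ovol2), the epithelial splicing regulatory proteins (Esrp1, Esrp2), the ETS factors Elf3 and Ehf, and the Krüppel-like factor Klf5 are described here across 4 samples of mouse pancreatic cancer cells. These 10 genes were taken from the array by gene name, out of 36918 gene names, and were read by 18 probes. The group was chosen by a measured value, the halofuginone change of Grhl2, which ran in opposite directions in the K5 and K6 cells. That difference is therefore a description and not a finding. Of the 10 genes, 8 were detected well above background by their brightest probe on 2 or more arrays and entered the test across all genes. Grhl3 and Ovol1 did not.

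The 4 samples were K5 cells and K6 cells treated with halofuginone at 100 nM for 24 hours, and K5 cells and K6 cells given DMSO as control. Halofuginone inhibits prolyl-tRNA synthetase. All samples come from pancreatic cancer of the C57BL/6 strain, and the labels do not say what sets K5 apart from K6. The cells are called lines below. Cy3-labelled cRNA made from total RNA was read on 1-colour Agilent arrays, 1 array per line and treatment, all on 1 slide. The labels do not tie the samples to separate cultures. The p-values therefore measure only the spread between these samples, which may be technical. The number of arrays limits every value.

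Values are the scanner's processed intensity for 1 spot per probe. Changes are differences of log2 intensity after the 75th percentile of each array was subtracted. The share of spots flagged well above background was 53.1% and 54.0% in halofuginone K5 and K6, against 47.2% and 48.6% in control K5 and K6, and no spot was saturated. Probes with at least 5 spots had a median spot-to-spot coefficient of variation between 2.37% and 3.28% per array, which covers error within an array only. The scanner software's own error estimate for the spot of the Grhl2 probe described below was 14.6% in halofuginone K5, 10% in halofuginone K6, 11.9% in control K5 and 11% in control K6.

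The label of pancreatic cancer cells was checked against marker lists. All 11 epithelial and ductal markers were well above background on all 4 arrays. Their summed intensity was 1058 and 991 times the array's 75th percentile in halofuginone K5 and K6, against 1321 and 1000.0 in control K5 and K6. Of 9 immune markers, 6 were well above background on all arrays, while 3 were not above background on any, Adgre1 and Lyz2 among them. Their sum was 14.1 and 10.5 in halofuginone K5 and K6, against 31.7 and 28.9 in control K5 and K6. Cd14 alone made up 2.89 and 0.997 under halofuginone, against 19.2 and 16.3 in control K5 and K6. The other 8 summed to 11.2 and 9.47 under halofuginone, against 12.6 and 12.5 in control K5 and K6. Of 8 fibroblast and stellate markers 1 was above background on all arrays and Fap, Lum and Pdgfrb were on none, with sums of 11.8 and 9.32 under halofuginone against 17.9 and 15.9 in control K5 and K6. Of 9 acinar markers, 2 were above background on all arrays and 4 on none, Amy2a5, Cela2a, Cpa1 and Ptf1a, with sums of 0.859 and 0.591 under halofuginone against 3.92 and 2.48 in control K5 and K6. Of 5 endothelial markers none was above background on all arrays and Cdh5 was on no array, with sums of 0.138 and 0.638 under halofuginone against 0.0817 and 0.127 in control K5 and K6. In these bulk samples fewer cells of a type and less RNA per cell cannot be told apart. The part of other cell types in the results below was not tested.

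Epithelial cells hold their identity through a small set of transcription and splicing factors. Grhl2 binds enhancers of genes for cell junctions and represses Zeb1, while Zeb1 represses Grhl2, so each factor opposes the other. Ovol1 and Ovol2 repress Zeb1 and other mesenchymal factors, Esrp1 and Esrp2 direct the epithelial form of transcripts such as Fgfr2 and Cd44, and Elf3, Ehf and Klf5 are expressed in many glandular epithelia, the pancreatic duct among them.

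The probes are shown first, because probes of 1 gene did not always give the same reading. Every probe has 60 bases. The Grhl2 signal rests on a probe far along the transcript, at base 4761, on mm9 chromosome 15 from 37293139 to 37293198. A second Grhl2 probe starts at 1360 of the same transcript and lies at 37239426 to 37239485. The central 30 bases of the first and all bases of the second, 5′ to 3′ on the plus strand, are given for comparison.
Grhl2 A_55_P1981322, bases 16 to 45: aagcaggggagactcgtgtgtacaatctgt
Grhl2 A_51_P408821: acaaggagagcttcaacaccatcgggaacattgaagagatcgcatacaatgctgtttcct
Ovol2 was read by 2 probes as well, but these are annotated to different transcripts of the gene. The first starts at base 1253 of its transcript, on chromosome 2 from 144131071 to 144131130. The second starts at base 259 of the other transcript and joins exons between 144143597 and 144156659. Both lie on the minus strand. Capitals mark 4 tandem GTCT units.
Ovol2 A_55_P1999289, bases 16 to 45: tgtgtatgtgtGTCTGTCTGTCTGTCTgtt
Ovol2 A_51_P322090: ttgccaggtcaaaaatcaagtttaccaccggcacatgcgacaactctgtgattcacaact
The brighter Klf5 probe also joins exons, between 99702656 and 99712388 on the plus strand of chromosome 14. The Grhl1 probe, at base 2837 of its transcript, lies on the plus strand of chromosome 12 from 25301994 to 25302053, and the brightest Ehf probe, at base 2777 of its transcript, on the minus strand of chromosome 2 from 103105140 to 103105199. Of the tested regulators these 3 had the largest changes over both lines.
Klf5 A_51_P507290: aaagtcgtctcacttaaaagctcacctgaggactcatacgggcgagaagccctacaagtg
Grhl1 A_52_P159276, bases 16 to 45: ggtttctttaggttcagggaactagaatag
Ehf A_55_P2804604, bases 16 to 45: ggtaatcaagctatgccaatttggggtgta

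Grhl2, which maintains epithelial junction genes, had an intensity of 57.3 in halofuginone K5 and 1119.8 in halofuginone K6, against 125 in control K5 and 218 in control K6. The halofuginone K6 array was the highest of the 4 and the halofuginone K5 array the lowest, with both controls between them. The log2 change was -1.47 in K5, a 2.78-fold lower signal, and 2.47 in K6, a 5.53-fold higher one. The K6 minus K5 difference in change was 3.94. Between lines, the K6 signal was 20.9-fold the K5 signal under halofuginone and 1.36-fold in control. With 1 array per line and treatment the difference carries no test. A difference of at least this size was found for 174 of 19092 tested genes (0.911%), Grhl2 included, and 96 of these were positive.

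The second Grhl2 probe, at the position 1360, stayed below the well-above-background mark on all 4 arrays. Its intensity was 7.58 and 6.54 in halofuginone K5 and K6, against 10.2 and 11.8 in control K5 and K6. These readings have no order, since no spot was detected. The opposite movement of Grhl2 was thus read by 1 of its 2 probes. Over both lines Grhl2 had a log2 change of 0.50 (SE 1.02, n = 2 lines, limma adjusted p = 0.76), with means of -1.76 ± 3.10 under halofuginone and -2.25 ± 0.31 in control (SD of normalized log2 signal, n = 2 each). A gene whose lines move in opposite directions cannot pass this test, since what is left over in the fit is exactly how far the lines' changes lie apart.

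**Figure D1:**
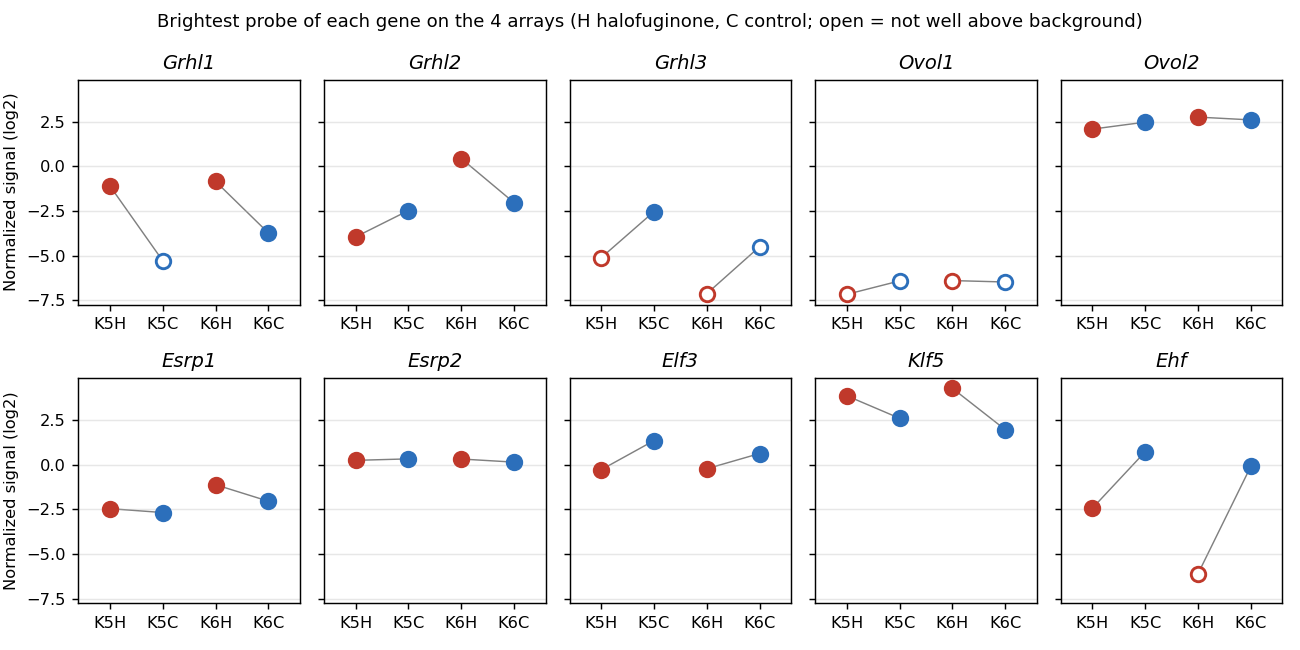
Normalized log2 signal of the brightest probe of each of the 10 genes, 1 point per array, halofuginone (H, red) left of control (C, blue) in each line, open where the spot was not well above background. Lines join the arrays of 1 cell line. Grhl2 lies lower under halofuginone in K5 (log2 change -1.47) and higher in K6 (2.47). Signals of different probes are not comparable with each other.

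Grhl1, a relative of Grhl2 that binds the same DNA element, rose in both lines. Its intensity was 410.2 and 460.1 in halofuginone K5 and K6, against 17.8 and 67.2 in control K5 and K6. Both halofuginone arrays lay above both controls, and the K5 control array was not well above background. Grhl1 was at least 8.35-fold higher with halofuginone in K5 and 7.36-fold higher in K6. Its log2 change over both lines was 3.53 (SE 0.41, higher in 2 of 2 lines, limma adjusted p = 0.039), with means of -0.98 ± 0.18 under halofuginone and -4.51 ± 1.102 in control (SD, n = 2 each). The K6 minus K5 difference in change was -1.30 as read, -0.18 with dim values set to a shared floor and -0.02 with normexp background correction. The call was lost without the line as a block (limma adjusted p = 0.094), without a filter (0.074), with that floor (0.10) and with scaling on probes above background on all 4 arrays (0.058). With a filter on all 4 arrays Grhl1 and Ehf were not tested. The call of Grhl1 held in the other 8 settings tried, where the adjusted p lay between 0.00024 and 0.046.

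Grhl3, which acts in the surface epithelium and in wound closure, was well above background only in control K5. Its intensity was 25.6 and 5.96 in halofuginone K5 and K6, against 119.9 and 39.6 in control K5 and K6. The signal was at least 5.25-fold lower with halofuginone in K5. In K6 neither array was above background, so no fold is given. The 3 grainyhead genes thus had 3 patterns, with Grhl1 higher in both lines, Grhl2 of opposite direction between lines, and Grhl3 detected on 1 control array alone.

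Ovol2, a repressor of mesenchymal genes, did not pass the test at its bright probe. The intensity was 3733 and 5572 in halofuginone K5 and K6, against 3836 and 5375 in control K5 and K6. The arrays of the treatments overlapped. The log2 change was -0.39 in K5 and 0.16 in K6, and -0.12 over both lines (SE 0.29, limma adjusted p = 0.80). This is the probe with the GTCT repeat printed above. The exon-joining Ovol2 probe was not above background on any array, at 7.23 and 8.87 in halofuginone K5 and K6, against 10.1 and 11.4 in control K5 and K6. It is annotated to another Ovol2 transcript than the bright probe, and whether these cells express that transcript was not tested. Whether the repeat-bearing probe also reads transcripts of other genes was not tested. Ovol1 had no reading above background, with 6.19 and 9.89 in halofuginone K5 and K6, against 8.16 and 10.1 in control K5 and K6.

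Esrp1, the splicing factor that favours epithelial exons, had an intensity of 161 and 380.2 in halofuginone K5 and K6, against 108 and 216 in control K5 and K6. Each K6 array lay above the K5 array of the same treatment. The log2 change was 0.22 in K5 and 0.92 in K6, and 0.57 over both lines (SE 0.31, limma adjusted p = 0.28). The K6 minus K5 level was 0.99 (SE 0.31, adjusted p = 0.29). This probe lies at base 2781 of its transcript, on chromosome 4 from 11260208 to 11260267. The other Esrp1 probes, at 11284629 to 11284688 and at 11284996 to 11285055, were not above background on any array, and read between 5.60 and 24.6. Esrp2, its close relative, had 1044 and 1030.1 in halofuginone K5 and K6, against 866 and 981 in control K5 and K6. Its log2 change of 0.05 (SE 0.26, adjusted p = 0.92) took either sign with the scaling, between -0.08 and 0.10.

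Ehf, an ETS factor of glandular and ductal epithelium, fell in both lines. Its brightest probe read 164 and 12.0 in halofuginone K5 and K6, against 1142 and 829.9 in control K5 and K6. Both halofuginone arrays lay under both controls, and the K6 halofuginone array was not well above background. Ehf was 8.91-fold lower with halofuginone in K5 and at least 30.1-fold lower in K6. Over both lines it fell by 4.58 on the log2 scale (SE 0.76, lower in 2 of 2 lines, limma adjusted p = 0.048), with means of -4.27 ± 2.59 under halofuginone and 0.31 ± 0.58 in control (SD, n = 2 each).

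All 4 Ehf probes read lower under halofuginone in both lines. The probe at 1090 of the transcript had 114 and 15.8 in halofuginone K5 and K6, against 1089 and 688 in control K5 and K6. The probe at 628 had 47.6 and 25.9 in halofuginone K5 and K6, against 376 and 215 in control K5 and K6. The probe at 3533 had 16.4 and 6.43 in halofuginone K5 and K6, against 219 and 160.8 in control K5 and K6. In K5 the signal was 8.91 to 12.2-fold lower with halofuginone at the 3 probes above background on both arrays, and at least 9.62-fold lower at the probe at 3533. In K6 every halofuginone spot was dim, and the bounds ran from 5.82-fold to 30.1-fold lower. The larger fall in K6 at the brightest probe, with a K6 minus K5 difference of -2.85, was not read by every probe, and was -0.67 with normexp. As read, the difference was -1.74 at the probe at 1090, 0.38 at the probe at 628 and -0.45 at the probe at 3533. The call of the brightest probe was lost when every probe was its own feature (limma adjusted p = 0.054), where the probes at 1090, 628 and 3533 passed (0.045, 0.045 and 0.045). It was also lost without the line as a block (0.15), without a filter (0.13), with dim values at a common floor (0.10) and with scaling on probes above background on all arrays (0.066), and held in the other 7 settings tried (4.33e-05 to 0.046).

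**Figure D2:**
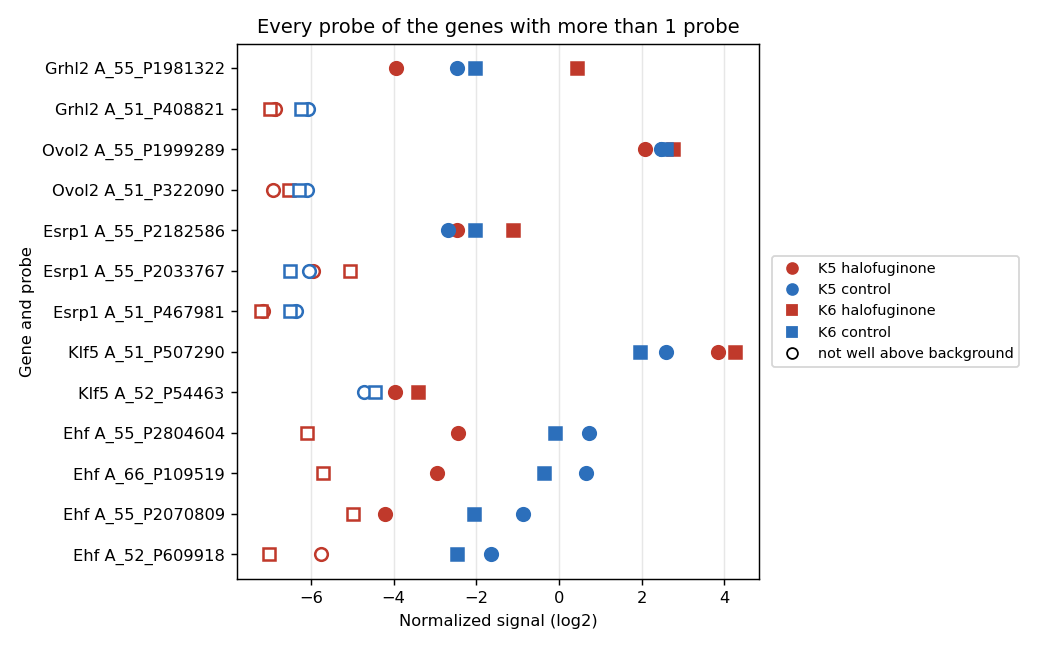
Normalized log2 signal of all probes of the 5 genes that have more than 1, with circles for K5 and squares for K6, red for halofuginone and blue for control, open where the spot was not well above background. For Grhl2, Ovol2 and Esrp1 1 probe is above background and the rest are not, whereas all 4 Ehf probes lie lower under halofuginone.

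Elf3, another ETS factor of epithelia, had 726 and 706 in halofuginone K5 and K6, against 1759 and 1370.3 in control K5 and K6. Both halofuginone arrays lay under both controls. The log2 change was -1.63 in K5 and -0.85 in K6, and -1.24 over both lines (SE 0.32, limma adjusted p = 0.088), which did not pass. Klf5, a growth-promoting factor of epithelial progenitors, had 12734.5 and 15947 in halofuginone K5 and K6, against 4176 and 3459.7 in control K5 and K6. Both halofuginone arrays lay above both controls. Its log2 change was 1.26 in K5 and 2.31 in K6, and 1.78 over both lines (SE 0.37, adjusted p = 0.062), which did not pass either. The dimmer Klf5 probe, at 99704137 to 99704196, had 56.7 and 77.0 in halofuginone K5 and K6, against 26.2 and 40.8 in control K5 and K6, where neither control was above background. With halofuginone it was at least 1.16-fold higher in K5, and in K6 the bound was 1.77-fold. Elf3 and Klf5 both passed in the same 3 alternatives, namely normexp background correction (limma adjusted p = 0.012 for Elf3 and 0.0013 for Klf5), a filter on all 4 arrays (0.029 and 0.013) and a trended prior variance (0.044 and 0.018). In the other settings tried the adjusted p lay between 0.076 and 0.16 for Elf3 and between 0.054 and 0.13 for Klf5.

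Of the 8 tested genes, limma called 1 higher (Grhl1) and 1 lower (Ehf) with halofuginone over both lines, against 3.88% of tested genes higher and 5.08% lower. Grhl1 and Ehf were each above background on 3 of 4 arrays. Within K5, 2 passed 2-fold upward and 3 downward, against 14.1% and 14.9% of tested genes. Within K6, 3 passed 2-fold upward and 1 downward, against 16.4% in each direction. In both lines alike, Grhl1 and Klf5 passed 2-fold upward (8.59% of tested genes) and Ehf downward (9.62%). Grhl2 alone of these genes passed 2-fold downward in K5 and upward in K6, which held for 0.445% of tested genes. This last contrast was used in choosing the genes. At an unadjusted p under 0.05 for halofuginone stood 4 of the 8, Grhl1, Ehf, Klf5 and Elf3, against 34.1% of tested genes. The medians of the 8 were -0.24 in K5 and 0.55 in K6, and include Grhl2. Without it those of the other 7 were -0.08 and 0.17, against -0.03 and 0.04 over all tested genes.

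**Figure D3:**
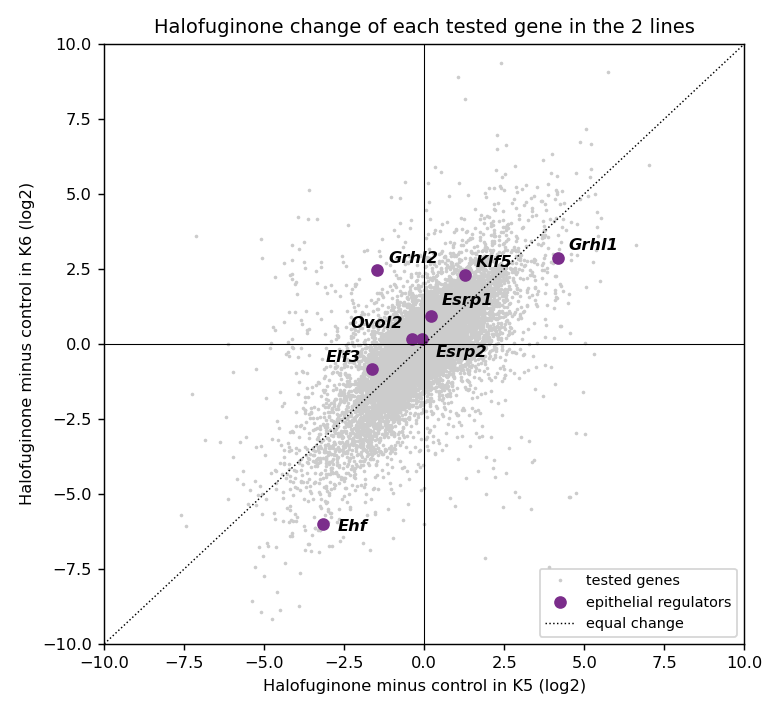
Log2 halofuginone change in K5 (x axis) and K6 (y axis) for 19092 tested genes (grey) and the 8 tested epithelial regulators (purple), with the dotted line at equal change. Grhl2 lies in the upper left quadrant (-1.47 and 2.47), Grhl1 and Klf5 in the upper right, and Ehf and Elf3 in the lower left.

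Between lines, with treatment in the fit, 0 of the 8 genes passed in limma, against 0.0576% of tested genes higher and 0.115% lower in K6. At an unadjusted p under 0.05 Esrp1 was higher in K6 and Ehf lower, against 7.64% and 7.9% of tested genes. Ehf had a K6 minus K5 level of -2.25 (SE 0.76, limma adjusted p = 0.31) and Grhl2 one of 2.41 (SE 1.02, adjusted p = 0.37).

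Genes that GRHL and OVOL factors are known to act on, mostly of cell junctions and the epithelial cytoskeleton, were followed as a list. Of 24 tested, 0 rose and 2 fell in limma, against 3.88% and 5.08% of all tested genes. The list's median was -0.56 for K5 and -0.20 for K6, against -0.03 and 0.04 over all tested genes. Erbb3, a receptor of neuregulins, had a normalized log2 signal of -2.04 and -1.84 in halofuginone K5 and K6, against 0.90 and 0.43 in control K5 and K6, and fell by 2.61 (SE 0.31, limma adjusted p = 0.039). Tjp3, a tight junction scaffold, had -0.63 and -4.06 in halofuginone K5 and K6, against 2.64 and 2.14 in control K5 and K6. It fell by 4.73 (SE 0.78, adjusted p = 0.048), a call lost with the mean over probes (0.051) and with every probe as its own feature (0.054). Tjp3 and Pkp3, a desmosomal plaque protein, had the largest differences between lines in the list, with changes of -3.27 in K5 and -6.20 in K6 for Tjp3, and of 0.18 and 2.19 for Pkp3. Pkp3 was not above background in control K5. In K5, 6 of the 24 were at least 2-fold lower and 0 higher, against 14.9% and 14.1% of tested genes. In K6, 5 were at least 2-fold lower and 1 higher, against 16.4% each way.

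Of the 11 tested mesenchymal factors and markers, 2 rose and 0 fell in limma, against 3.88% and 5.08% of all tested genes. In K5, 2 were at least 2-fold higher and 0 lower, against 14.1% and 14.9%. In K6, 4 were at least 2-fold higher and 0 lower, against 16.4% each way. Snai2 and Zeb2, repressors of epithelial genes, both rose. Snai2 had 1.55 and 3.86 in halofuginone K5 and K6, against -2.19 and -0.06 in control K5 and K6, a log2 change of 3.83 (SE 0.26, limma adjusted p = 0.036). Zeb2 had 0.90 and 1.67 under halofuginone, against -1.31 and -1.05 in control K5 and K6, a change of 2.47 (SE 0.29, adjusted p = 0.039). Zeb1, the repressor paired with Grhl2, had a change of 0.58 in K5 and 0.80 in K6 and did not pass. Twist2 (-0.87 in K5 and -0.48 in K6) and Tcf4 (-0.23 and -0.22) read lower in both lines and did not pass. Vim, the intermediate filament vimentin, and Fn1, fibronectin, had the largest differences between lines, with changes of -0.05 in K5 and 0.83 in K6 for Vim and of 0.53 and 1.07 for Fn1. The median of the list was 0.53 in K5 and 0.80 in K6. The changes of Snai2 and Zeb2 were known when the list was written and are no independent evidence of its direction. Every call on a gene outside the 10 regulators that is named here was lost in the 4 settings in which limma called 0 genes with halofuginone (adjusted p of 0.054 to 0.24).

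Of 12 genes whose transcripts ESRP proteins splice, 0 rose and 0 fell in limma, with 6 at an unadjusted p under 0.05, against 34.1% of tested genes, and medians of 0.14 in K5 and 0.40 in K6. The probes read gene signal, not the choice of exon. Cd44, the hyaluronan receptor, had a change of -0.31 in K5 and 0.43 in K6, and Nf2, the tumour suppressor merlin, one of -0.52 and -1.31. Of 13 other splicing regulators, 1 rose, Srsf1, and 0 fell in limma, against 3.88% and 5.08% of all tested genes. Srsf1 had 3.76 and 4.07 in halofuginone K5 and K6, against 2.29 and 2.38 in control K5 and K6. Its change was 1.58 (SE 0.26, limma adjusted p = 0.048). The call held in 5 of 13 alternatives. Outside the 4 settings with 0 calls it was lost with quantile normalization, the authors' table, the mean over probes and every probe as its own feature (0.051 to 0.055). Ptbp1 and Mbnl2 differed most between lines in this list, at 0.27 in K5 and 1.31 in K6 for Ptbp1, and at -0.12 and 0.71 for Mbnl2.

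The relatives of these factors were compared in the same way. Of 15 other ETS factors, 0 rose and 0 fell in limma, with 3 at an unadjusted p under 0.05 (34.1% of tested genes). Spdef, a factor of secretory cells, had -2.76 in K5 and 0.16 in K6, where the control was not above background, and Etv5 0.09 and -1.01. Of 12 other KLF factors, 2 rose and 0 fell in limma, against 3.88% and 5.08% of all tested genes. Klf10, induced early by TGF-beta, had 3.08 and 4.05 in halofuginone K5 and K6, against 1.27 and 1.75 in control K5 and K6, a change of 2.06 (SE 0.28, adjusted p = 0.044). Klf8 was at least 2.16-fold higher with halofuginone (adjusted p = 0.048). It entered the test only through the halofuginone arrays, with no control array above background, so its call supports nothing about the list. That call held in 2 of 12 alternatives, the 75th percentile over probes and median centring, and outside the 4 settings with 0 calls it was lost in 6 others (0.051 to 0.068). Klf6 had a change of 0.98 in K5 and 2.11 in K6 and Klf2 one of 0.20 and -0.68, the largest differences between lines in this list. The KLF median was 0.38 in K5 and 0.80 in K6. Of 3 tested grainyhead and OVOL relatives 0 passed in limma, with 2 at an unadjusted p under 0.05 (34.1% of tested genes). Ubp1 had changes of 1.32 in K5 and 1.24 in K6, and Tfcp2l1 of -0.76 and -0.69.

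Among markers of other cell types, Cd14 fell by 3.38 (SE 0.42, limma adjusted p = 0.040), Cd68 by 1.79, a call lost with every probe as its own feature (0.051), and Cela1 by 2.53, while Kdr rose by 2.61 with 1 of 2 control arrays above background. Of the ductal markers Muc1 fell by 3.40 (SE 0.26, adjusted p = 0.036). Ehf, Muc1, Cd14 and Cela1 thus all read lower with halofuginone in both lines. The part of cell composition in the fall of Ehf was not tested.

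The genes whose 4-array profile came nearest to that of Grhl2, by Euclidean distance between mean-centred log2 values over 4 arrays, were Tfap2a, Mt2, Pde2a, AI464196 and Pip5k1a, at distances of 0.55 to 0.97. They were chosen for closeness to Grhl2, so their opposite changes in K5 and K6 follow from the choice. How often profiles of unrelated genes lie this close over 4 arrays was not tested. Tfap2a, a transcription factor of surface ectoderm, had changes of -0.94 in K5 and 2.43 in K6. Mt2, a metallothionein, had -1.43 and 1.70. Pde2a, a phosphodiesterase, had -0.66 and 1.92, AI464196 -0.61 and 3.40, and Pip5k1a, a phosphoinositide kinase, -1.17 and 1.72. Of the other regulators, Esrp1 came nearest at a distance of 2.16, rank 394 among the other tested genes, and Ehf was the farthest at 7.68.

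Promoter windows from RefSeq (GRCm38.p6) were matched for 4 of the 10 genes, Grhl1 with 2 windows and Grhl3, Ovol2 and Elf3 with 1 each. The 250 bases before the start were searched on both strands for TGATGNAA, the element read by C/EBP and ATF dimers, for AACCNGTT, the grainyhead element, and for CACCTG, the E-box of Zeb and Snai factors. The motifs do not overlap in these windows. The second Grhl1 window held 1 TGATGNAA match, 221 bases before the start, and such a match was in 3.45% of all 32851 windows. The Grhl3 and Elf3 windows held 1 CACCTG each, 19 and 140 bases before the start, as did 17.2% of all windows. No window of these genes held AACCNGTT, which was in 1.79% of windows. Of these genes Grhl1 had the largest change over both lines, and Elf3 was lower in both, so these windows are shown with the matches in capitals. A match is a description of letters and not evidence of binding.
Grhl1, second window, chr12:24580469-24580718, plus strand: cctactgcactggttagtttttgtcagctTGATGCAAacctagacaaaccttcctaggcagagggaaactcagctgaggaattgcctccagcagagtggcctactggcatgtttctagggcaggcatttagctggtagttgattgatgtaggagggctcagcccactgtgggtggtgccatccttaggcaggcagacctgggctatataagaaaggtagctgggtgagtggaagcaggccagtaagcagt
Elf3, chr1:135258473-135258722, minus strand: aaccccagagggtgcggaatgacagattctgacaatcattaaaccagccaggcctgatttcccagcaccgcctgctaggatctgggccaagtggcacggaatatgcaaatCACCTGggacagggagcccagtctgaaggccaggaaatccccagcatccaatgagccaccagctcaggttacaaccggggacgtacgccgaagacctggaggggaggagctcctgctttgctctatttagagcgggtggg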

How the data were processed

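The deposited intensity per spot came from Agilent Feature Extraction, version 10.7.1.1 per the file headers and 9.5.1.1 per the submitters' processing notes, with probe positions on mm9. Background had been subtracted and a spatial trend removed inside each array, dim spots held a surrogate, and arrays were not scaled to each other. Other deposited values per spot are flags for signal well above background, saturation and outliers, and an error estimate. The authors' deposited value table of intensity was an alternative, whose making the sources used here do not state.

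Controls and outlier flags were dropped before spots were averaged per probe. The 75th percentile of log2 signal over all spots other than controls was subtracted per array. A gene was read by its brightest probe and tested when that probe was flagged well above background on 2 or more arrays. limma 3.58.1 (R 4.3.3) fitted halofuginone and line together, with Benjamini-Hochberg adjustment over 19092 genes and a threshold of 0.05. Line is a block because the design compares treated and control cells within K5 and within K6. The fit has 1 residual and 2.97 prior degrees of freedom. A fold against arrays not above background is a bound, set at the lowest signal among probes above background or the probe's own, if higher, and the fit's p does not test it. The method was run on simulated data with independent errors, whose spread was drawn from the fit's own prior. Such data can check the fitting code but not the p-values of these arrays.

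The 10 genes and all lists were chosen with earlier results of these data known. Named from each list were genes past the threshold in either comparison and the 2 genes with the largest difference in change between lines, with all 10 regulators and the 5 genes nearest to Grhl2. Zeb1, Twist2 and Tcf4 were added after their values were seen. Alternatives are given at the end.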

Additional observations from a re-analysis of the deposited data

Results flagged for a closer look

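The Grhl2 change with halofuginone was -1.47 in K5 and 2.47 in K6, a K6 minus K5 difference of 3.94, and it drew attention because the single pair of arrays in each line moved the opposite way. The difference was not tested, and it is the pattern by which the genes were grouped. It was read by 1 of 2 Grhl2 probes, the other being not above background on any array.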

How the results depend on the processing

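The Grhl2 difference between lines lay between 3.17 and 4.01 in every alternative that could change it. With halofuginone limma called 1710 genes, and separate fits called 5393 with normexp, 4012 with the filter on all 4 arrays and 4204 with a trended prior. The count was 0 without the replicate block (4491 at an unadjusted p under 0.05), without a filter (15048), with dim values at a common floor (5884) and with scaling on probes above background on all 4 arrays (6482), which moved the median of all genes by -0.12. Dropping the filter moved that median by -0.35. For K6 against K5, limma called 33 genes, and 149 with quantile normalization, 152 with the authors' table, 167 with the 75th percentile over probes (chosen after seeing the data), 296 with median centring, 305 with the filter on all 4 arrays, 304 with a trended prior and 1210 with normexp. It called 0 in 6 settings, with the unadjusted counts 798 without the replicate block, 3655 without a filter, 2512 with the floor, 2834 with scaling on probes above background on all arrays, 2892 with the mean over probes and 4142 with every probe its own feature. The replicate block changed the call of both Grhl1 and Ehf among the regulators. With 1 line left out no residual degree of freedom remains, so values of the other line stand alone without a test, for Grhl1 2.88 to 4.18 and for Ehf -6.00 to -3.16. Of 102 alternative values for the 8 regulators' change, 85 kept direction and side of the threshold, 9 lost a call, 6 gained one, 2 near 0 moved and 0 reversed. Signal near background limits Grhl1 in control K5, Ehf in halofuginone K6, Grhl3 and Ovol1.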

Other observations

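The epithelial target list was also read between lines. Of its 24 tested genes, 11 were higher in K6 and 0 lower at an unadjusted p under 0.05 in limma, against 7.64% and 7.9% of all tested genes, and 0 passed the adjusted threshold. The genes named here were chosen after their values were seen. Rab25, a small GTPase of apical recycling, was at least 10.1-fold higher in K6 (limma adjusted p = 0.057) and Ap1m2, an epithelial clathrin adaptor subunit, at least 2.48-fold (0.054), with no K5 array above background for either. Cldn4, a tight junction claudin, had a mean normalized log2 signal of -1.18 ± 0.14 in K6 and -4.31 ± 0.37 in K5 (SD, n = 2 each), 8.77-fold higher in K6 (adjusted p = 0.061). Epcam, an epithelial adhesion molecule, was 3.77-fold higher (0.096). In control, Cldn4 had -1.27 in K6 and -4.05 in K5, and Epcam -0.16 and -1.94. Under halofuginone, Cldn4 had -1.08 in K6 and -4.57 in K5, and Epcam -0.49 and -2.55. The largest differences the other way were those of Tjp3 (K6 minus K5 level -1.96, SE 0.78, limma adjusted p = 0.35) and Krt19 (-0.84, SE 0.42, 0.42). Any part of Grhl2 in these differences was not tested. The adjusted p of Rab25, Ap1m2, Cldn4 and Epcam missed the threshold as analysed. Over the alternatives it ran from 0.00028 to 0.67, with each of these 4 genes passing in at least 1.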
